A study of Mus musculus with 40 samples.

Results

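The voltage-gated sodium and calcium channel genes were followed here as 35 named autosomal genes of the Scn and Cacn families, out of 55450 annotated genes and 20807 autosomal protein-coding genes, and each was read for peaks of H3K4me3 and H3K27me3 at its promoters. They comprised 9 sodium channel alpha subunits, 3 sodium channel beta subunits, 9 calcium channel alpha1 subunits, 4 alpha2-delta subunits, 4 calcium channel beta subunits and 6 gamma subunits. All 35 were found in the annotation. The list was made by gene name and was chosen with earlier results of these data known. A promoter was the window from 2000 bp upstream to 1000 bp downstream of a transcript start, and the value of a gene in a library was the number of base pairs of its promoters that lay under peaks.

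The material was oligodendrocyte precursor cell (OPC) cultures from AMGFAP-Cre;K27M litters aged P5 to P7. The K27M cultures carried the conditional H3-3a knock-in that yields histone H3.3 K27M after Cre recombination, in a Cre line that the study names hGFAP-Cre and that is active in neural stem and progenitor cells, and the controls came from littermates. Brainstem and dorsal telencephalon (cortex, corpus callosum and hippocampus, labelled cortex) were pooled across a litter by region and genotype, immunopanned on PDGFRa and kept in proliferation medium without differentiation, so a culture stands for a pool of pups of both sexes. Each mark was profiled by ChIP-seq in control and K27M cultures 59 and 61 of the brainstem and 59, 60 and 61 of the telencephalon, which made 5 matched pairs and 20 libraries. Numbers 59 and 61 occur in both regions, and whether same-numbered cultures came from the same pups is not stated. The 5 pairs may therefore not all be independent. Peaks were called in each library against its own input.

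Voltage-gated sodium channels open on depolarisation and carry the upstroke of the action potential through a pore-forming alpha subunit, which beta subunits anchor and tune. Voltage-gated calcium channels pass calcium through an alpha1 subunit whose trafficking and gating depend on alpha2-delta and beta subunits, while most brain gamma subunits act as auxiliary proteins of AMPA-type glutamate receptors. OPCs are glial precursors that receive synapses from neurons and are known to carry both currents. H3K4me3 marks promoters that are active or poised, H3K27me3 is laid down by Polycomb repressive complex 2, and a promoter with both marks is called bivalent. Histone H3 K27M impairs that complex and lowers H3K27me3.

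Promoter DNA of 5 members is printed because their marks differed most clearly in these cultures. Each line gives the 250 bases before a RefSeq transcript start on GRCm38 (mm10), 5′ to 3′ in the direction of the gene, with the CpG dinucleotides in capitals. A RefSeq promoter was found for 28 of the 35 members. Scn4b and Cacna1i carried H3K27me3 in all 10 cultures, Cacna1c carried H3K4me3 in all 10 and H3K27me3 in none, Scn9a varied between cultures, and Scn10a never had H3K4me3.
Scn4b, chr9:45138374-45138623, plus strand: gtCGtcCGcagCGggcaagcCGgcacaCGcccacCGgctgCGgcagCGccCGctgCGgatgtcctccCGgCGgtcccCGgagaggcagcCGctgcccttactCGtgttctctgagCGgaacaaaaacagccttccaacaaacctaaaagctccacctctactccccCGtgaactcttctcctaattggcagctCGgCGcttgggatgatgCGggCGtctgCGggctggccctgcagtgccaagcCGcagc
Cacna1i, chr15:80286988-80287237, plus strand: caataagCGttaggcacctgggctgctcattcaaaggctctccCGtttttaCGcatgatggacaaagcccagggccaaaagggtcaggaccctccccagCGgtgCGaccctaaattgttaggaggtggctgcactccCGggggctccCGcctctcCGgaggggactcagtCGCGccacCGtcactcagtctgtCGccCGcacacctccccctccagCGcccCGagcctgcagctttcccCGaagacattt
Cacna1c, chr6:119108496-119108745, minus strand: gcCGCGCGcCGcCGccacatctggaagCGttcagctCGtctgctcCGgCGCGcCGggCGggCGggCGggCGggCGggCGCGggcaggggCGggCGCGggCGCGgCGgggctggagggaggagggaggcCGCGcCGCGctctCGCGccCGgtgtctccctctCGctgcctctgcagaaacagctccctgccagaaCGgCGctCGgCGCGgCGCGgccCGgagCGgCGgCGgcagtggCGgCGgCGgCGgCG
Scn9a, chr2:66634963-66635212, minus strand: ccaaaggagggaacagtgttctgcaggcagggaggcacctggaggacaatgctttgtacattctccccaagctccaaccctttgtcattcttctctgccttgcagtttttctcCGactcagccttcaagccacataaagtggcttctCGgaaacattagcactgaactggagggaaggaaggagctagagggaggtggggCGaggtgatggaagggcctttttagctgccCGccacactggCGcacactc
Scn10a, chr9:119719033-119719282, minus strand: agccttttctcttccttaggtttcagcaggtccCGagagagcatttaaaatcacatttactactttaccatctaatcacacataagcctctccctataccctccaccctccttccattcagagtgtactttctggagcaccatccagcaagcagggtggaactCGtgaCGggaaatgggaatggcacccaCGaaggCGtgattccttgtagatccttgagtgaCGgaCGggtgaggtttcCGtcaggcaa
These windows held 23 CpG at Scn4b, 16 at Cacna1i, 48 at Cacna1c, 5 at Scn9a and 8 at Scn10a. Cacna1c had the most CpG and Scn9a the fewest among the sequences shown.

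The libraries differed widely in how much was called. H3K27me3 lists held 4739 to 64808 peaks and H3K4me3 lists 20961 to 31200, and the files give no read counts, so the depth behind a single peak cannot be read from them and the amount of a mark below the calling threshold was not measured. Telencephalon control 59 stood apart from the other telencephalon controls, with H3K27me3 peaks over 26.5 Mb of the genome against 96.2 and 152 Mb in controls 60 and 61. By the study's read totals, duplicates included, it had the most reads of all H3K27me3 libraries. Counts without telencephalon control 59 are given beside the main results. The label OPC was set against markers, and 6 of 6 OPC lineage genes (Pdgfra, Cspg4, Olig1, Olig2, Sox10 and Nkx2-2) had promoter H3K4me3 in every culture, as did 59.1% of protein-coding genes, so the mark does not single out OPC genes. Of markers of other cells, 0 of 4 microglial, 1 of 4 endothelial, 1 of 4 astrocyte and 6 of 8 neuronal genes had it in all 5 controls, and in all 5 K27M cultures the numbers were 1, 1, 1 and 8. The part of other cells in the values of the channel genes was not tested. Members had longer promoter sets than other genes, with a median of 9470 bp against 6000 bp over protein-coding genes, which gives a peak more room to touch one.

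Most channel genes carried H3K4me3, and the bivalent ones were mainly calcium channel genes. H3K4me3 was present in all 10 cultures at 25 of 35 members, against a background of 59.1% of protein-coding genes, and in none at 3, the skeletal muscle channel Scn4a and the sensory neuron channels Scn10a and Scn11a (background 32.2%). A gene was bivalent where both marks lay on the same promoter, and the consensus of a region kept peaks supported in at least 2 cultures. By consensus over the control cultures of a region, 11 of 35 members were bivalent in the brainstem (31.4%, background 9.67%) and 16 of 35 in the telencephalon (45.7%, background 14.3%). The brainstem set was Scn4b, Cacna1b, Cacna1e, Cacna1g, Cacna1i, Cacna2d1, Cacna2d2, Cacna2d4, Cacnb3, Cacnb4 and Cacng2. The telencephalon set held these 11 and Scn9a, Scn2b, Cacna1s, Cacnb2 and Cacng3. By role, the consensus called bivalence in the brainstem at 0 of 9 sodium channel alpha subunits, 1 of 3 sodium beta subunits, 4 of 9 alpha1 subunits, 3 of 4 alpha2-delta subunits, 2 of 4 calcium beta subunits and 1 of 6 gamma subunits. By consensus, a group of 15 members carried H3K4me3 alone in both regions. Among them were Scn1a, Scn2a, Scn3a and Scn8a, the main brain sodium channels, and Cacna1a, Cacna1c and Cacna1d, pores of P/Q-type and L-type calcium currents. Read culture by culture, Scn8a was bivalent in both brainstem controls and in telencephalon controls 60 and 61. Scn1a, Scn3b, Cacna1h, Cacna2d3 and Cacng5, also of this group, were each bivalent in some single controls.

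The larger telencephalon number rested on cultures 60 and 61. It was 16 without culture 59, 7 without culture 60 and 6 without culture 61. The rule that all controls of a region carry the peak gave 7 in the telencephalon and 13 in the brainstem, and cultures 59 and 61 alone gave 7 and 11, so the order of the regions turned over. The difference between regions in the number of bivalent members was not tested. In K27M cultures 10 members were bivalent in the brainstem (background 6.32%), the control set without Cacna2d4. In the telencephalon 9 were (background 7.01%), namely Scn4b, Cacna1e, Cacna1g, Cacna1i, Cacna2d2, Cacna2d4, Cacnb3, Cacnb4 and Cacng2, all of them among the 16 of the controls.

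**Figure D1:**
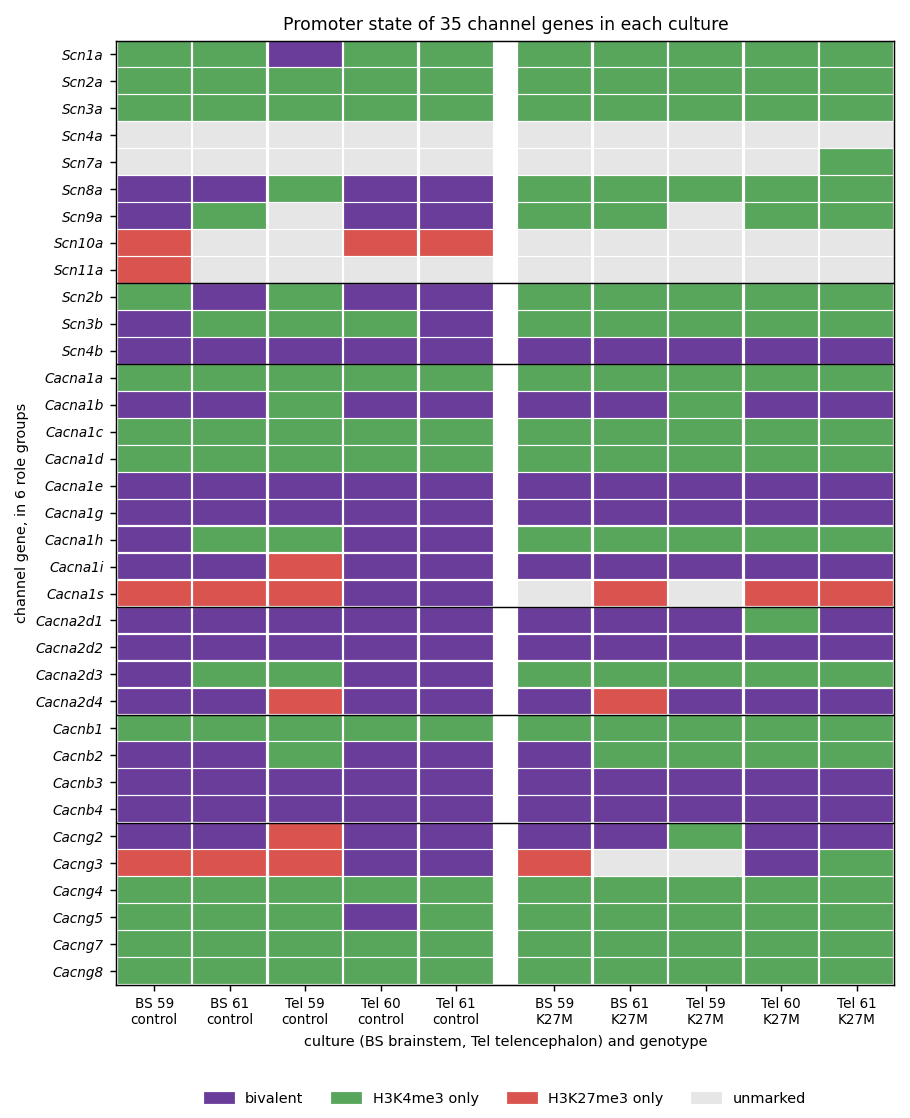
Promoter state of each of the 35 channel genes (rows, in 6 role groups) in each of the 10 cultures (columns, controls left, K27M right), with 1 colour per state. Scn4b, Cacna1e, Cacna1g, Cacna2d2, Cacnb3 and Cacnb4 are bivalent in every column, whereas Scn1a, Scn8a, Scn9a and Scn2b are bivalent only among the controls.

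Fewer channel genes had an H3K27me3 peak in the K27M cultures. Members with a promoter peak numbered 22 in control and 13 in K27M of brainstem pair 59, and 16 and 12 in brainstem pair 61. In the telencephalon the numbers were 13 and 9 in pair 59, 22 and 12 in pair 60, and 22 and 12 in pair 61. K27M was lower in 5 of 5 pairs, K27M minus control averaged -7.40 members (SD 3.13, n = 5 pairs; -8.25 without telencephalon pair 59), and the control and K27M ranges overlapped only at 13. The share of protein-coding genes with a peak went from a mean of 22.2% in controls to 10.1% in K27M, with a mean difference of -12.2 percentage points (SD 6.96). Covered promoter sequence summed over members was 52.9 kb on average in controls and 20.5 kb in K27M, a mean difference of -32.5 kb (SD 25.5). The difference in members with a peak was -2.60 when each pair was held to equal numbers of peaks and -2.80 with peaks of at least 3-fold enrichment. In the pairs whose K27M library had more total reads by the study's account, duplicates included, it was -7.00 members. These pairs were brainstem 61 and telencephalon 60. Without duplicates the brainstem 61 K27M library had fewer reads than its control.

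Where a control culture had a peak at a member, the K27M partner had one too at 59.1% and 75.0% of members in brainstem pairs 59 and 61. The corresponding shares in telencephalon pairs 59, 60 and 61 were 69.2%, 54.5% and 54.5%. Over protein-coding genes they were 34.9%, 61.7%, 60.5%, 47.2% and 35.3% in the same order, so the members' share was the higher one in 5 of 5 pairs, and no test was run over the members. Peaks absent from K27M had the lower median fold enrichment in controls in 5 of 5 pairs, among members and protein-coding genes alike. In brainstem pair 59 their median control fold enrichment over input was 2.32 against 4.23 for members that kept a peak, and over protein-coding genes 2.51 against 5.04. In telencephalon pair 59 the members' medians were 2.31 and 2.34, close to equal.

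**Figure D2:**
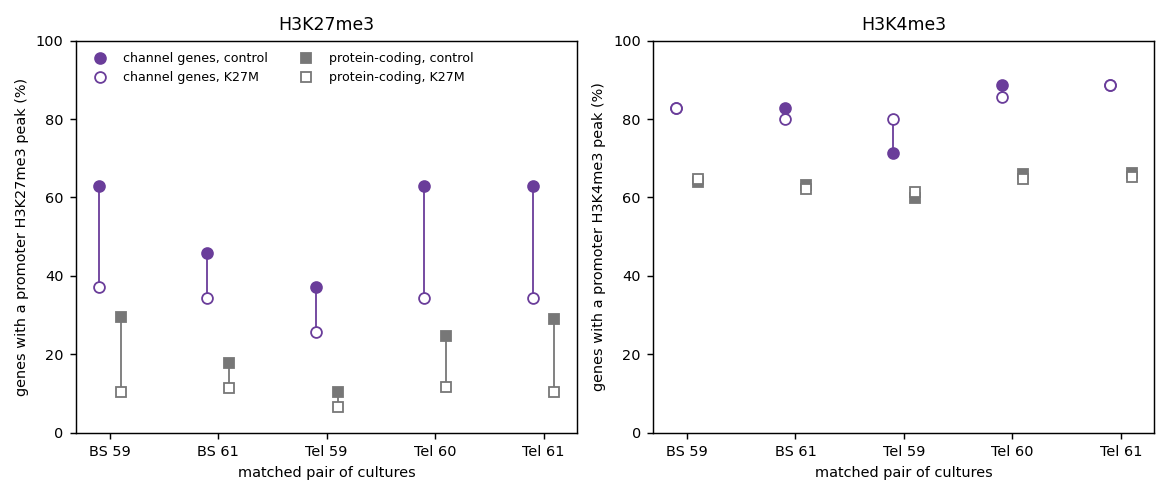
Share of genes with a promoter peak (y axis, percent) in the 5 matched pairs (x axis) for H3K27me3 on the left and H3K4me3 on the right, with circles for the 35 channel genes and squares for protein-coding genes, filled for control and open for K27M. For H3K27me3 the open symbol lies below the filled one in every pair, from 62.9% to 37.1% of members in brainstem pair 59, while for H3K4me3 they lie close together.

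The members sorted into 4 classes by H3K27me3. Peaks were present in all 10 cultures at 8 of the 24 members that had one anywhere, namely Scn4b, Cacna1e, Cacna1g, Cacna1i, Cacna2d2, Cacna2d4, Cacnb3 and Cacnb4 (background 12.9% of 14152 genes with a peak in any library). At 10 of 24 a peak was seen in at least 1 control and in no K27M culture, namely Scn1a, Scn8a, Scn9a, Scn10a, Scn11a, Scn2b, Scn3b, Cacna1h, Cacna2d3 and Cacng5 (background 66.0%). The converse pattern was seen at 0 members (background 0.325%). The remaining 6, Cacna1b, Cacna1s, Cacna2d1, Cacnb2, Cacng2 and Cacng3, kept a peak in some K27M cultures. Without telencephalon pair 59, 10 of 24 had a peak in all 8 cultures, the 8 above with Cacna1b and Cacng2 (17.9% of genes), and the 10 seen in controls alone were the same (65.9%). A further 11 members had no H3K27me3 promoter peak in any culture, namely Scn2a, Scn3a, Scn4a, Scn7a, Cacna1a, Cacna1c, Cacna1d, Cacnb1, Cacng4, Cacng7 and Cacng8. Of the 12 sodium channel genes, 7 were in the class without a peak in K27M and Scn4b alone was in the class with a peak everywhere.

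Per gene, the signs of the 5 pair differences were flipped in all combinations, an exact permutation test (two-sided) whose smallest possible p is 0.0625, with Benjamini-Hochberg adjustment over all 14152 genes. Coverage was lower in K27M in 5 of 5 pairs at 5 of 24 members tested, Cacna1e, Cacna2d4, Cacnb4, Cacng2 and Cacng3, each at p = 0.0625 and adjusted p = 0.497 by this permutation test. The background was 10.5% of genes. No member was higher in 5 of 5 pairs (background 0.134%), and 0 genes of any kind passed an adjusted threshold of 0.05 for H3K27me3, as the design does not allow it. At an unadjusted p under 0.05 the sign-flip test gave 0 genes. With labels permuted within each region and no pairing, 5 members had an exact permutation p of 0.05 or less and lower coverage, Scn1a, Cacna1e, Cacna2d4, Cacng2 and Cacng3 (background 9.14%) and 0 had higher coverage (background 0.0707%), while Cacnb4 had p = 0.150 in that exact permutation test. The count of members lower in every remaining pair was 8 without brainstem pair 61 and 7 without telencephalon pair 59, and with peaks of at least 3-fold enrichment it was 0.

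**Figure D3:**
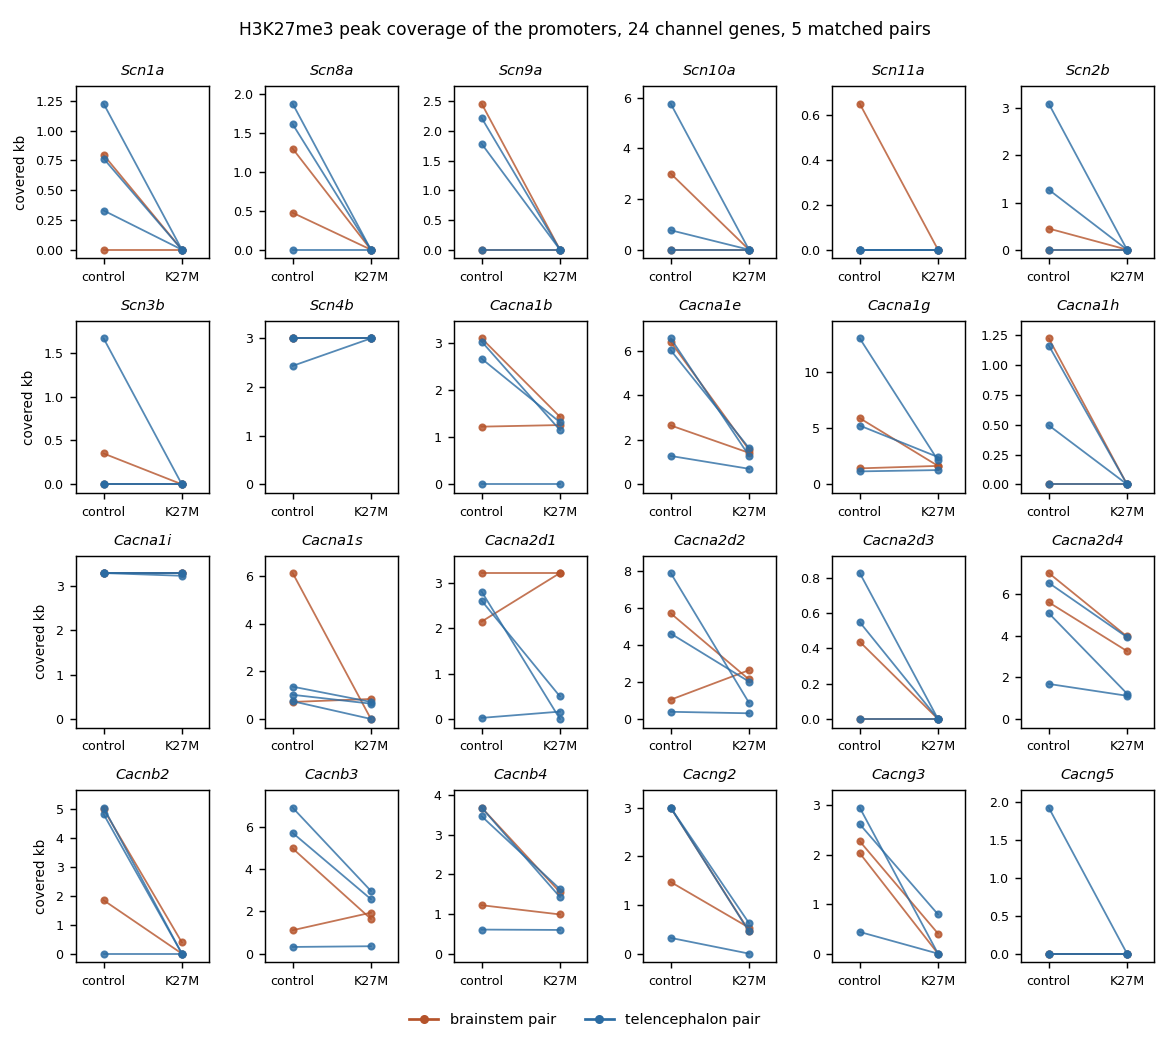
Promoter length under H3K27me3 peaks (y axis, kb) in the control and K27M culture of each matched pair (x axis), 1 panel for each of the 24 channel genes with a peak in any library, lines joining pairs, brown for brainstem and blue for telencephalon. Lines of Cacna1e, Cacna2d4, Cacnb4, Cacng2 and Cacng3 all slope down, and those of Scn4b and Cacna1i are nearly level, close to 3000 and 3296 bp.

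By consensus in brainstem controls, 5 of 9 sodium channel alpha genes carried H3K4me3 only and 4 were unmarked. Where a promoter of these genes had H3K27me3, it was seen in controls alone. Scn1a (chr2:66270778-66440840), which encodes the principal sodium channel of inhibitory interneurons, had H3K27me3 over 796 and 0 bp in brainstem controls 59 and 61 and over 765, 329 and 1226 bp in telencephalon controls 59, 60 and 61, and over 0 bp in all 5 K27M cultures. Scn8a (chr15:100869858-101045938), the channel of mature nodes of Ranvier, had 1298 and 474 bp in brainstem controls, 0, 1875 and 1612 bp in telencephalon controls, and 0 bp in every K27M culture. Both were thus covered in 4 of 5 controls and in no K27M culture, and 1 control of each lay at the K27M level. Scn9a, a channel of nociceptive neurons, had 2460 bp in brainstem control 59, 1784 and 2219 bp in telencephalon controls 60 and 61, and 0 bp in the other 7 cultures.

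Scn8a was the one member with a peak in every brainstem control and in no brainstem K27M culture, 1 of 23 members against a background of 16.6%, and Scn1a the one in the telencephalon, 1 of 23 against 4.68%. These counts turned on single cultures. The brainstem number was 4 without culture 59 and 9 without culture 61. The telencephalon number was 8 without culture 59 and 2 without culture 60. Fewer cultures make the rule easier for any gene to meet. The share over all genes is not given for these subsets, so they are no result about the channel genes. The reverse was seen at 0 members in either region (backgrounds 0.679% and 0.0163%). All cultures of both genotypes had a peak at 11 of 23 members in the brainstem (background 25.8%) and at 8 of 23 in the telencephalon (background 15.5%). In telencephalon pairs 60 and 61 alone the latter number was 11 of 23 (25.0% of genes).

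The sensory channels Scn10a and Scn11a lie next to each other on chromosome 9 and had H3K27me3 without H3K4me3. Scn10a promoters were covered over 3005 bp in brainstem control 59 and over 767 and 5762 bp in telencephalon controls 60 and 61, and Scn11a over 649 bp in brainstem control 59 alone. Across the 217 kb from the start of one gene to the end of the other, H3K27me3 covered 44.4 and 6.32 kb in the brainstem controls, 0.603, 10.2 and 93.9 kb in the telencephalon controls and 0 kb in all 5 K27M cultures. The controls thus ranged widely, and all of them lay above the K27M cultures. The chromosome 2 cluster of Scn3a, Scn2a, Scn1a, Scn9a and Scn7a (chr2:65457118-66784914) had only 0 to 6.57 kb under H3K27me3 in controls over its 1328 kb, and 0 kb in K27M.

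H3K4me3 at the sodium channel alpha genes varied by gene. It was absent from every library at Scn4a, Scn10a and Scn11a, and Scn7a, which encodes a sodium-sensing channel of glia, had it over 395 bp in telencephalon K27M 61 only. Scn9a had it over 425 and 697 bp in brainstem controls against 611 and 547 bp in K27M, over 1005 and 877 bp in telencephalon controls 60 and 61, 613 and 616 bp in their K27M partners, and 0 bp in both cultures of telencephalon pair 59. Scn9a was therefore marked in 8 of 10 cultures, and the exception was 1 pair and not 1 genotype.

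Scn1a, Scn2a and Scn3a had broader H3K4me3 in some K27M cultures, a pattern picked out after the values were seen. Scn2a (chr2:65620771-65767447), the early axonal sodium channel, had 2497 and 1629 bp in brainstem controls 59 and 61 against 2807 and 1559 bp in K27M. For telencephalon pairs 59, 60 and 61, it had 1348, 957 and 1250 bp in controls against 1646, 2713 and 2089 bp in K27M. Scn2a was higher in K27M in 4 of 5 pairs, by a mean of 627 bp (SD 710, exact sign-flip permutation p = 0.125, adjusted p = 0.869), so the difference lay within the spread between pairs. Scn1a differed by a mean of 505 bp in 4 of 5 pairs (SD 525, exact permutation p = 0.188). Scn3a, the fetal brain channel, had 140 and 361 bp in telencephalon controls 60 and 61 against 1120 and 1165 bp in their K27M partners, while in the other 3 pairs all 6 values lay between 867 and 1219 bp.

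Of the sodium channel beta genes, Scn4b kept the mark everywhere and Scn2b and Scn3b did not. Scn4b (chr9:45138395-45154152), whose product promotes resurgent sodium current, had its 3000 bp promoter fully under H3K27me3 in 9 of 10 cultures and 2435 bp of it in telencephalon control 59. The peaks at that promoter were longer in controls, measuring 24.2 and 26.4 kb in brainstem controls 59 and 61 against 6.55 and 6.37 kb in K27M. Across telencephalon pairs 59, 60 and 61, they measured 5.41, 28.6 and 31.9 kb in controls against 5.28, 11.8 and 6.50 kb in K27M. The covered part of the gene itself was 100% in 4 of 5 controls, and 71.0% and 61.9% in brainstem K27M 59 and 61 and 72.2% and 55.5% in telencephalon K27M 60 and 61. Both cultures of telencephalon pair 59 were below all of these. The promoter sequence printed for Scn4b lay under an H3K27me3 peak in every culture but telencephalon control 59, where it fell in a gap between peaks. H3K4me3 covered 580 to 1530 bp of its promoter across the 10 cultures.

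Scn2b (chr9:45117782-45130070) lies 8.32 kb from Scn4b and encodes a beta subunit that links channels to the matrix. Its H3K27me3 was 0 and 448 bp in the brainstem controls, 0, 1273 and 3099 bp in the telencephalon controls and 0 bp in every K27M culture. By consensus it was H3K4me3 only in brainstem and bivalent in telencephalon controls, although 1 brainstem control had a peak and 1 telencephalon control had none. Scn3b had 351 bp in brainstem control 59 and 1662 bp in telencephalon control 61, and none in the other 8 cultures.

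**Figure D4:**
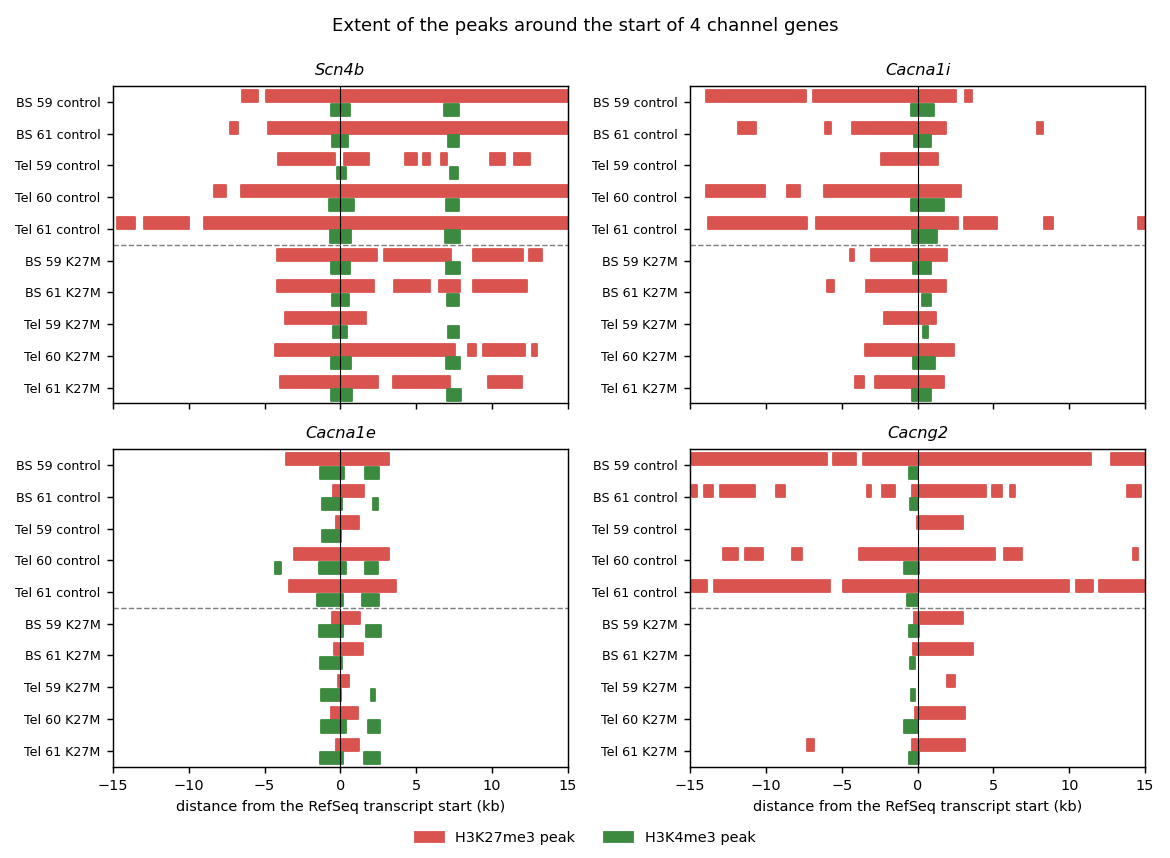
Extent of H3K27me3 peaks (red) and H3K4me3 peaks (green) within 15 kb of the RefSeq start (x axis, kb, transcription to the right) of Scn4b, Cacna1i, Cacna1e and Cacng2, with 1 row per culture, controls above the dashed line. In most K27M rows the red bars are shorter and lie near the start. At Cacna1e the peak over the start ran from -3580 to 3193 bp in brainstem control 59 and from -558 to 1290 bp in its K27M partner. The bars still cover the start in all 5 K27M rows of Scn4b and Cacna1i.

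Calcium channel alpha1 genes split into pores that never had H3K27me3, pores that always had it and 3 in between. Cacna1a, Cacna1c and Cacna1d had none. Cacna1i (chr15:80287238-80398279), a T-type pore, had 3296 bp covered in 9 cultures and 3234 bp in telencephalon K27M 59, whereas Cacna1g, another T-type pore, had the highest mean in controls of all members, 5319 bp of its 14676 bp of promoters. Cacna1g was covered over 5869 and 1416 bp in brainstem controls 59 and 61 against 1635 and 1633 bp in K27M. In telencephalon pairs 59, 60 and 61 it had 1147, 12950 and 5213 bp in controls against 1262, 2127 and 2417 bp in K27M, so K27M was lower in 3 of 5 pairs. Its highest fold enrichment in K27M was 8.21, 9.30, 2.48, 9.05 and 10.3 in the same order, each above the partner control at 6.18, 5.70, 2.34, 6.84 and 6.73. Fold enrichment of a broad peak is an average over its length. Among members with a peak in both cultures, K27M was higher at 6 of 13, 11 of 12, 7 of 9, 3 of 12 and 4 of 12. Over protein-coding genes it was higher at 1055 of 2132, 1687 of 2272, 984 of 1303, 690 of 2421 and 1194 of 2136.

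Cacna1e (chr1:154390731-154884501), the R-type pore, showed the steadiest difference among the pores. It had 6402 and 2646 bp under H3K27me3 in brainstem controls 59 and 61 against 1558 and 1416 bp in K27M. For telencephalon pairs 59, 60 and 61, the controls had 1274, 6027 and 6559 bp and K27M 698, 1634 and 1289 bp. K27M was lower in 5 of 5 pairs, with a mean difference of -3263 bp (SD 2188, n = 5, exact sign-flip permutation p = 0.0625, adjusted p = 0.497), although telencephalon control 59 lay within the K27M range. The Cacna1e peaks were still called in all 5 K27M cultures, with a length of 0.698 to 1.90 kb around the start.

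Cacna1b, the N-type presynaptic pore, had H3K27me3 over 3105 and 1227 bp in brainstem controls against 1437 and 1261 bp in K27M, over 3037 and 2672 bp in telencephalon controls 60 and 61 and 1155 and 1322 bp in K27M, and over 0 bp in both cultures of telencephalon pair 59. The T-type pore Cacna1h had 495 to 1225 bp in 3 controls and nothing in K27M. Cacna1s (chr1:136052750-136119822), the skeletal muscle L-type pore, had 6124 and 714 bp in brainstem controls and 0 and 838 bp in K27M. Across telencephalon pairs 59, 60 and 61, Cacna1s had 743, 1014 and 1356 bp in controls and 0, 642 and 714 bp in K27M. Its H3K4me3 was seen in telencephalon controls 60 and 61 alone, over 1077 and 792 bp, which made it bivalent there and H3K27me3 only in brainstem controls. Cacna1i had H3K4me3 over 1508 and 1103 bp in brainstem controls against 1129 and 603 bp in K27M. In telencephalon pairs 59, 60 and 61 it had 0, 1760 and 1631 bp in controls and 303, 1420 and 1252 bp in K27M, so telencephalon control 59 was the one culture without it. Cacna1a had the highest mean H3K4me3 coverage of all members, 4489 bp in controls and 4291 bp in K27M. Its brainstem values were 4390 and 4279 bp in controls against 4517 and 4138 bp in K27M, and its telencephalon values 3290, 5637 and 4850 bp against 3695, 4568 and 4538 bp, with the genotypes overlapping.

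Alpha2-delta genes, whose products raise channel number at the membrane and bind gabapentin in the case of Cacna2d1 and Cacna2d2, were bivalent in both regions except Cacna2d3. Cacna2d1 (chr5:15934691-16374511) kept H3K27me3 in brainstem K27M and had little in telencephalon K27M. It had 2150 and 3220 bp in brainstem controls 59 and 61 and 3220 bp in both brainstem K27M cultures. For telencephalon pairs 59, 60 and 61, it had 24, 2808 and 2608 bp in controls and 162, 0 and 498 bp in K27M. Brainstem and telencephalon K27M values did not overlap for Cacna2d1 and Cacna2d2, 2 of 14 members lower in the telencephalon against a background of 11.2%, and 0 were higher (background 2.16%). With 2 brainstem and 3 telencephalon cultures no two-sided exact test can pass 0.05, and the difference between regions in the genotype effect was not tested.

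Cacna2d4 (chr6:119236526-119352407), an alpha2-delta subunit of photoreceptor synapses, had 7004 and 5598 bp in brainstem controls 59 and 61 against 3958 and 3258 bp in K27M. Across telencephalon pairs 59, 60 and 61, it had 1681, 6531 and 5076 bp in controls against 1112, 3926 and 1215 bp in K27M. K27M was lower in 5 of 5 pairs, with a mean difference of -2484 bp (SD 1216, exact sign-flip permutation p = 0.0625, adjusted p = 0.497), with controls and K27M overlapping through telencephalon control 59. Its H3K4me3 was 1564 and 727 bp in brainstem controls against 1843 and 0 bp in K27M. The telencephalon controls had 0, 2687 and 3466 bp and their K27M partners 318, 1706 and 1893 bp. The 2 cultures without it, brainstem K27M 61 and telencephalon control 59, were of opposite genotype. Cacna2d2 had 386 to 7869 bp in controls and 306 to 2631 bp in K27M, and Cacna2d3 had 437 to 826 bp in 3 controls and none in K27M.

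Calcium channel beta subunits bind the pore from inside and release it from retention. Cacnb4 (chr2:52428320-52676831), the subunit mutated in lethargic mice, had 3688 and 1223 bp under H3K27me3 in brainstem controls 59 and 61 against 1554 and 990 bp in K27M. In telencephalon pairs 59, 60 and 61 the controls had 607, 3470 and 3688 bp and K27M 598, 1632 and 1431 bp, lower in 5 of 5 pairs with a mean difference of -1294 bp (SD 1085, exact permutation p = 0.0625, adjusted p = 0.497). Pair 59 of the telencephalon differed by only a few base pairs. Cacnb2, a cardiac and brain subunit, had 5006 and 1850 bp in brainstem controls against 388 and 0 bp in K27M, and 0, 5061 and 4834 bp in telencephalon controls against 0 bp in all 3 K27M cultures. Cacnb2 was H3K4me3 only in brainstem controls by consensus although both brainstem controls had a peak at a promoter, and bivalent in telencephalon controls. Cacnb3 had 315 to 6906 bp in controls and 349 to 2968 bp in K27M, and Cacnb1, the skeletal muscle subunit, had none.

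Among gamma genes, Cacng2 and Cacng3 carried H3K27me3 and the other 4 had it in at most 1 culture. Cacng2 (chr15:77991748-78120028) encodes stargazin, which brings AMPA receptors to the synapse. Its promoter was covered over 3000 and 1472 bp in brainstem controls 59 and 61 against 467 and 534 bp in K27M. For telencephalon pairs 59, 60 and 61, it was covered over 323, 3000 and 3000 bp in controls against 0, 455 and 629 bp in K27M, lower in 5 of 5 pairs with a mean difference of -1742 bp (SD 1040, exact permutation p = 0.0625, adjusted p = 0.497). H3K4me3 at Cacng2 covered 586 and 483 bp in brainstem controls against 637 and 333 bp in K27M. Across telencephalon pairs 59, 60 and 61, it covered 0, 971 and 738 bp in controls and 271, 897 and 671 bp in K27M, and telencephalon control 59 was again the culture without a peak.

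Cacng3 (chr7:122670492-122769393), a related AMPA receptor subunit, had 2272 and 2031 bp under H3K27me3 in brainstem controls against 406 and 0 bp in K27M. In telencephalon pairs 59, 60 and 61 it had 438, 2617 and 2951 bp in controls against 0, 794 and 0 bp in K27M. It was lower in 5 of 5 pairs, with a mean difference of -1822 bp (SD 899, exact permutation p = 0.0625, adjusted p = 0.497), and leaving the pairing out gave the smallest exact permutation p of any member, 0.0333. H3K4me3 at Cacng3 was found in no brainstem culture and not in telencephalon pair 59, and covered 528 and 931 bp in telencephalon controls 60 and 61 and 344 and 453 bp in their K27M partners. Cacng5 had H3K27me3 over 1930 bp in telencephalon control 60 alone. Cacng8 had the longest H3K4me3 of the gamma genes, 3925 to 4701 bp.

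**Figure D5:**
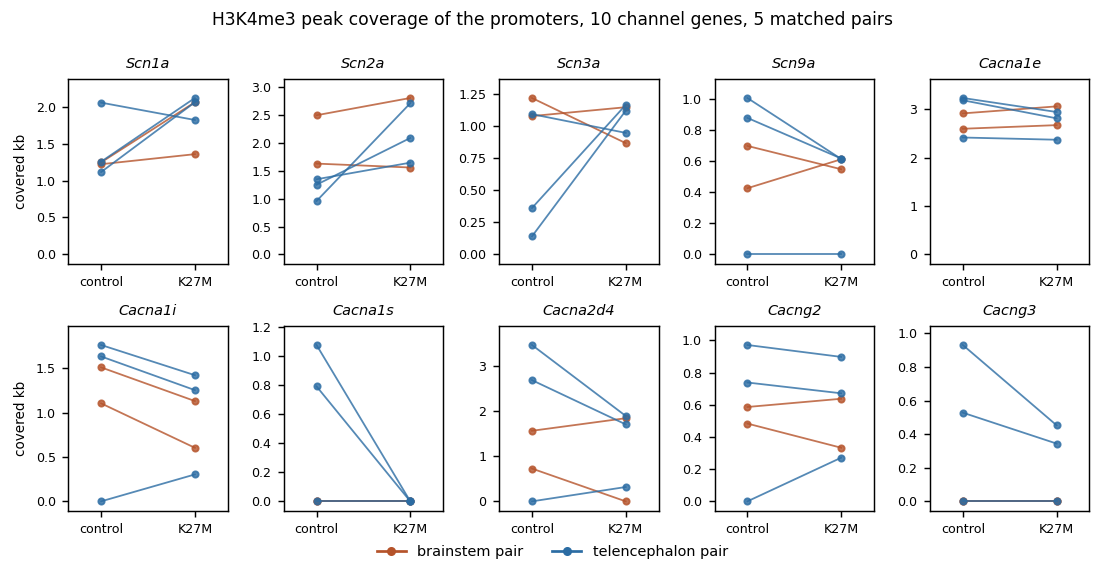
Promoter length under H3K4me3 peaks (y axis, kb) in the control and K27M culture of each matched pair (x axis), brown for brainstem and blue for telencephalon, for 10 channel genes. Cacna1s and Cacng3 lie at 0 in every brainstem culture, and the blue lines of Scn3a from telencephalon controls 60 and 61 run from 140 and 361 bp to 1120 and 1165 bp.

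H3K4me3 was close to equal between genotypes over the whole set. Members with a peak numbered 29 and 29, and 29 and 28, in control and K27M of brainstem pairs 59 and 61. They numbered 25 and 28, 31 and 30, and 31 and 31 in telencephalon pairs 59, 60 and 61. The mean difference was 0.200 members (SD 1.64, n = 5 pairs), and covered length differed by a mean of -1.65 kb (SD 6.32) around 64.6 kb in controls. Of 32 members tested, 0 were lower and 0 higher in 5 of 5 pairs (backgrounds 0.650% and 5.22% of 20000 genes). Permuting labels within regions likewise gave 0 and 0 members at an exact p of 0.05 or less (backgrounds 0.0700% and 3.96%). Left-out cultures changed these counts to at most 4 members higher, without brainstem pair 61, and 3 lower, without telencephalon pair 59.

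Fold enrichment of H3K4me3 could not be set side by side between libraries. At Cacna1a, for example, it was 4.36 in telencephalon control 59 and 103 in telencephalon control 60. It was higher in control 60 at 23 of the 25 members with a peak in both, the exceptions being Scn2a and Scn3a. Telencephalon control 60 also had the highest median over all its peaks, 13.8, against 3.57 in control 59.

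H3K27me3 peaks that stayed were mostly shorter in K27M, clearly so in 3 of the 5 pairs. Over members with a peak in both cultures of a pair, peaks at the promoters had a median length of 9.40 kb in control and 2.89 kb in K27M of brainstem pair 59 and were shorter in 12 of 13 members. In telencephalon pairs 60 and 61 the medians were 8.45 and 3.15 kb, and 8.28 and 2.50 kb, and 12 of 12 members were shorter in each. In brainstem pair 61 the medians were 3.10 kb in control and 3.28 kb in K27M, with 7 of 12 members shorter. In telencephalon pair 59 they were 1.65 and 1.37 kb, with 6 of 9 shorter. Over protein-coding genes the shares shorter were 90.3% and 74.7% in the brainstem pairs and 69.0%, 95.6% and 95.7% in the telencephalon pairs, so the members followed the other genes. The pairs with the smallest shares, brainstem 61 and telencephalon 59, were also those whose control lists had the fewest peaks, 25632 and 12715.

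Regions were compared in controls. For H3K27me3, 0 members were higher and 0 lower in every telencephalon than in every brainstem control (backgrounds 0.879% and 2.45%), and a mean of 19.0 members had a peak in each region (SD 4.24 in brainstem, n = 2, and 5.20 in telencephalon, n = 3). For H3K4me3, 3 of 31 members, Scn2a, Scn3b and Cacnb4, had less coverage in every telencephalon than in every brainstem control (background 15.8%), and 0 had more (background 0.970%). In K27M cultures the telencephalon was lower at Cacng5 alone (background 2.63%) and higher at 0 members (background 2.05%). With 2 against 3 cultures none of these can pass a two-sided exact test at 0.05. The 5 members whose consensus state differed between regions, Scn9a, Scn2b, Cacna1s, Cacnb2 and Cacng3, had overlapping H3K27me3 values in all cases.

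Some neighbouring members differed in their marks. Cacna1c and Cacna2d4 lie 40.1 kb apart on chromosome 6, and Cacna1c promoters had no H3K27me3 while those of Cacna2d4 had it in all 10 cultures. Cacna1d and Cacna2d3 lie 318 kb apart on chromosome 14. The 1587 kb that hold both whole genes and the gap had 9.40 to 30.5 kb under H3K27me3 in controls and 0 kb in all 5 K27M cultures. Cacng7 and Cacng8, 22.5 kb apart on chromosome 7, had H3K4me3 in all 10 cultures and no promoter H3K27me3.

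A list of 30 genes that anchor, modulate or respond to these channels was read in the same way. Of these, 9 were bivalent in brainstem controls (background 9.67%) and 16 in telencephalon controls (background 14.3%). H3K27me3 was present in at least 1 control at 21 and in at least 1 K27M culture at 13. Of all 55450 annotated genes, 14106 had it in at least 1 control and 4811 in at least 1 K27M culture. It was present in all 5 K27M cultures at 4 of the list, Ank3, Sptbn4, Rem1 and Stac2, for which no share over all genes is given. Ank3 and Sptbn4 encode ankyrin-G and beta-IV spectrin, the scaffold that holds sodium channels at the axon initial segment and nodes. Mean H3K27me3 coverage was 4073 bp in controls and 3558 bp in K27M at Ank3, and 4317 and 2899 bp at Sptbn4. Coverage was lower in K27M in 5 of 5 pairs at Fgf14, Rem1 and Stac, 3 of the 21 with a peak in any library (background 10.5%), and higher at 0. Fgf14 encodes a sodium channel partner of the initial segment, and Rem1 a small GTPase that binds calcium channel beta subunits.

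CpG content and a repressor motif were read from the genome for all promoters. The densest promoter of a member held a median of 3.67 CpG per 100 bp, against 2.73 over protein-coding genes. Members had a median of 6.00 distinct promoters against 3.00 over protein-coding genes. That gives members more windows for a dense promoter, and likewise for the motif below, and neither comparison was adjusted for it. The 8 members with H3K27me3 in all 10 cultures had a median of 4.92 (2.37 to 5.53), the 10 with H3K4me3 and never H3K27me3 had 3.83 (0.733 to 7.93), and the 5 with H3K4me3 in fewer than 3 cultures, Scn4a, Scn7a, Scn10a, Scn11a and Cacna1s, had 1.67 (0.733 to 3.27). The ranges of the first and second classes overlapped. The core of the RE1 element bound by REST, searched on both strands as AGCACCNNGGACAG, was found in promoters of 3 of 35 members (8.57%), against 0.639% of protein-coding genes and 0.251% of 132721 distinct promoters of 3000 bp. No other motif was searched. The sites, with the letters fixed in the search in capitals, read alike.
Scn2a, chr2:65619967-65619980, plus strand: AGCACCacGGACAG
Scn3b, chr9:40269744-40269757, minus strand: AGCACCacGGACAG
Cacna1b, chr2:24762086-24762099, plus strand: AGCACCacGGACAG
These members differed in H3K27me3, which was absent from all 10 cultures at Scn2a, present in 2 controls at Scn3b and present in 4 controls and 4 K27M cultures at Cacna1b. A match is a description of the letters in a window and no record of binding.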

How the data were processed

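ChIP-seq peaks of H3K4me3 and H3K27me3 were analysed in 20 libraries of cultured mouse OPCs (control and K27M, 2 brainstem and 3 telencephalon cultures of each). The authors trimmed reads with Trim Galore 0.6.7 and cutadapt 3.4, aligned them to mm10 with BWA 0.7.17-r1188 and called peaks with MACS2 2.2.7.1 in each library against its own input, as narrow peaks for H3K4me3 and broad peaks (cutoff 0.1) for H3K27me3. Drosophila chromatin had been added, but the peak calls do not use it, so total amounts of a mark are not compared. The deposited files give a fold enrichment over input (a ratio), which broad peaks average over the region, with −log10 p-values and −log10 q-values. The display score was not used. Files of the input libraries were not analysed here. Read counts are not in the peak lists, so no counting interval is given. Read totals stated by the study, duplicates included, served only to pick the pairs with more reads in the K27M library for 1 alternative.

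Peaks were joined to GENCODE M21 promoters (2000 bp upstream to 1000 bp downstream, at least 1 bp of overlap), and a peak was counted for every gene whose promoter it touched. Promoter sequences came from RefSeq on GRCm38. For the consensus, a peak needed support in 2 cultures at p-values of 1e-10 and 1e-06 for H3K4me3 and of 1e-08 and 1e-04 for H3K27me3, a rule rewritten from the MSPC method. K27M was compared with control by an exact two-sided sign-flip permutation test over 5 pairs (32 arrangements), adjusted over all genes with a peak in any library (14152 for H3K27me3 and 20000 for H3K4me3). The pairing follows the study's methods, in which matched cultures were handled at the same time. Deviations of same-numbered control and K27M cultures correlated at -0.07 in brainstem and 0.57, 0.30 and -0.25 in telencephalon cultures 59, 60 and 61 for H3K27me3, and at -0.07, 0.68, 0.38 and 0.44 for H3K4me3. The cultures come from pooled litters, and p-values measure the spread between these pools. The sign-flip test treats the 5 pairs as independent, which same-numbered cultures of the regions may not be. Python 3.11.15, numpy 2.4.6, scipy 1.17.1 and matplotlib 3.10.9 were used, and the code was tested on simulated data.

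The members, the partner list and the marker lists were chosen with earlier results of these data known. All 35 members are accounted for. Values in every library are given for members whose consensus state differed between regions, members lower in H3K27me3 in 5 of 5 pairs, members with H3K4me3 in 1 to 9 of 10 cultures, and the highest and lowest of each mark. Other members with values by library (Scn1a, Scn2a, Scn3a, Scn8a, Scn10a, Scn3b, Scn4b, Cacna1b, Cacna2d1 and Cacng5) were chosen after their values were seen. Alternatives were stricter peak thresholds, other windows and overlaps, basic transcripts, equal numbers of peaks in each pair, no pairing, other consensus rules and leaving out each culture. The H3K27me3 class counts without telencephalon pair 59 were added after seeing the data.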

Additional observations from a re-analysis of the deposited data

Results flagged for a closer look

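Cacna1e, the R-type calcium channel pore, had H3K4me3 differences of opposite sign in the regions. K27M minus control was higher in both brainstem pairs, with a mean of 110 bp, and lower in all 3 telencephalon pairs, with a mean of -237 bp. The difference between regions was not tested. The same split of signs in H3K4me3 was seen at 718 of 20000 genes (3.59%), and Cacna1e was the one channel gene among them.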

How the results depend on the processing

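Of 147 recomputed values for 14 results, 118 moved by less than their limits and 29 moved further. The limits do not track sign. The 118 include the regional H3K27me3 length, which was -17.8 kb without brainstem culture 61 and 23.3 kb without brainstem culture 59. No H3K27me3 difference between genotypes changed sign, while values near 0 did. H3K4me3 covered length went from -1.65 to 0.707 kb with 3-fold peaks, H3K4me3 members with a peak from 0.200 to -0.500 without telencephalon pair 59, and the regional H3K27me3 length from 2.77 to -0.566 kb with 3-fold peaks and -7.34 kb with cultures 59 and 61. Without the pairing (the replicate block), 5 members and 1293 genes were lower for H3K27me3 and 0 members changed for H3K4me3. Requiring a −log10 q of 3 gave 715 genes lower in every pair and 0 telencephalon members lost from every control, and a fold enrichment of 3 gave 156 and 0, with 0 members lower and a mean difference of -2.80 members with a peak. With equal numbers of peaks in each pair the last value was -2.60 and 791 genes were lower. A window of 1000 bp upstream to 500 bp downstream gave 3 members and 837 genes lower and 1 member with higher H3K4me3. GENCODE basic transcripts gave 3 members lower and 2 brainstem members lost. The bivalent telencephalon members were 7 when a peak was required in every control and 7 with cultures 59 and 61 alone.

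Leaving out each culture gave 5 to 8 members and 1522 to 3168 genes lower for H3K27me3, the last without telencephalon pair 59. It gave 0 to 4 members higher and 0 to 3 lower for H3K4me3, 4 to 9 brainstem and 1 to 8 telencephalon members lost, and 6 to 16 bivalent telencephalon members. The shares of all genes lost or bivalent in these subsets are not given. The regional difference in covered H3K27me3 lay between -17.8 and 23.3 kb. A brainstem consensus could not be made from 1 culture. The cause of these shifts was not tested. A design of 5 pairs cannot give a sign-flip p under 0.0625, and marks below the calling threshold were not seen.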

Other observations

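Among OPC lineage genes, Nkx2-2 was the one with H3K27me3 at a promoter, in 2 of 5 control and 3 of 5 K27M cultures, with mean coverage of 172 bp in controls and 2359 bp in K27M. Of the 8 neuronal genes, Rbfox3, Gad1, Slc17a7 and Stmn2 were bivalent by consensus in controls of both regions. The others, Elavl3, Tubb3, Snap25 and Syt1, were H3K4me3 only in both.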
